A study of Mus musculus with 28 samples.

Results

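Solute carriers (SLC) are membrane proteins that move amino acids, sugars, ions, metals, nucleotides and cofactors across the plasma membrane, the endolysosome and the inner mitochondrial membrane. The members described here are the protein-coding genes whose symbol starts with Slc and a digit and whose mean CPM (counts scaled to a common library total) reached 10 in at least 1 of the 8 groups of the first of 2 experiments. The rule gave 120 of 375 such genes (32.0%), and 7877 of 21936 protein-coding genes (35.9%) reached the same level. Of the 120, 86 reached 10 CPM in all 8 groups, 34 were below it in some group, and 4 reached it in 1 group only. The remaining 255 genes were left out, 17 of them with no count at all. The members nearest the threshold were Slc23a2 at 11.0 and Slc25a46 at 11.1 CPM, and genes just outside it included Slc38a7 at 9.92 and Slc19a1 at 9.88 CPM. The same genes were followed in the second experiment. Because a member could enter through 1 group in which it is high, counts are also given for the 86 that every group of experiment 1 admits. Genes described below as at the same level reached 10 CPM in at least 1 group. No share is given for all genes that every group admits, so the 86 have no background of their own.

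The members were grouped by what they carry: 20 for amino acids and peptides, 16 for ions and phosphate, 17 for metals and heme, 23 mitochondrial carriers, 19 for nucleosides, nucleotide sugars and acetyl-CoA, 12 for organic ions, lipids and vitamins, and 10 for sugars and monocarboxylates. The other 3 carry an Slc symbol but are not transporters: the scaffold gene Slc9a3r1, the adaptor gene Slc4a1ap, and Slc7a6os, which lies on the opposite strand to Slc7a6. Conventional dendritic cells (cDC) take up antigen and present it to T cells. The cDC1 lineage depends on the transcription factor IRF8, whose expression there needs an enhancer 32 kb downstream of the Irf8 start, and cDC1 are known for cross-presenting antigen to CD8 T cells. The cDC2 lineage mainly primes CD4 T cells and depends on ZEB2. In such phagocytes, SLC proteins of the endolysosome set the metal, proton and peptide content of the compartment in which antigen is cut.

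RNA was sequenced in bulk from cDC populations sorted from the spleens of C57BL/6 mice, as biological duplicates (2 libraries per group, 28 libraries, 14 groups). Experiment 1 had wild-type (WT) cDC1 and cDC2, Irf8 +32H/+ cDC1, cDC2 and hybrid cells, and Irf8 +32H/H cDC1, cDC2 and hybrid cells. These genotypes carry 1 (H/+) or 2 (H/H) altered copies of the +32 kb Irf8 enhancer, and "hybrid" is the submitters' name for the additional population sorted from them. Experiment 2 had WT cDC1, and from H/H mice the cDC1 and hybrid cells, the cDC1 and hybrid cells of H/H Nfil3-/- mice, and the hybrid cells of H/H mice with the Zeb2 allele named -165D123. Every Nfil3 and Zeb2 group therefore carries H/H, as do its controls. No cell-type driver is given for any allele. The gates, the ages of the mice and whether mice were pooled are not given in the sources used here.

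Libraries held 23.4 to 38.2 M estimated counts in experiment 1 and 17.5 to 22.7 M in experiment 2, and the members held between 0.635% and 0.81% of them. The summed CPM of 10 cDC1 marker genes was 5450 to 6160 in WT cDC1 and 472 to 597 over the cDC2 libraries of experiment 1. Irf8 itself is 1 of these 10 genes. The 10 cDC2 markers summed to 32.7 to 36.5 in WT cDC1 and 1740 to 1750 in WT cDC2. Irf8 stood at 2579 and 1959 CPM in the WT cDC1 libraries of experiment 1, 1220 and 1090 in H/+ cDC1, and 837 and 831 in H/H cDC1. Nfil3 stood at 36.9 and 35.65 CPM in H/H cDC1 and at 3.68 and 2.75 in H/H Nfil3-/- cDC1, and at 41.5 and 55.3 against 5.62 and 5.69 in the hybrid cells. Its level also differed between the experiments, at 6.21 and 9.58 CPM in WT cDC1 of experiment 1 and 30.8 and 36.9 in WT cDC1 of experiment 2. How the cells of each experiment were handled is not given in the sources used here, and no test crosses the experiments. Zeb2 stood at 38.6 and 46.9 CPM in H/H hybrid cells and at 10.3 and 19.5 in those with the -165D123 allele. Xist, which is transcribed in females, was present in all 8 second replicates of experiment 1, and in experiment 2 only in the second replicates of the 3 Nfil3-/- and -165D123 groups. Fewer cells of a type and less RNA per cell cannot be told apart in bulk libraries.

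The most abundant member in every group was Slc25a5, an ADP/ATP carrier of the inner mitochondrial membrane. Per kilobase of exon it reached 1018 CPM in WT cDC1 and 640 in WT cDC2. Slc25a4, its paralog, followed in WT cDC1 with 197 CPM per kilobase, then Slc46a3, a lysosomal transporter, with 127, and Slc8b1, the mitochondrial sodium/calcium exchanger, with 115. Processed copies of Slc25a5 and Slc25a4 elsewhere in the genome could share reads with them, so these levels are uncertain. The 10 most abundant members together held 47.5 to 53.6% of the members' summed CPM. CPM values here, above and below are after TMM scaling of the library totals, except those of the member rule, which used plain totals. From here on they are given by library or as mean ± SD of 2 libraries. Log2 fold changes and adjusted p-values come from edgeR's quasi-likelihood test over all genes with Benjamini-Hochberg adjustment at 0.05.

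WT cDC1 and cDC2 differed in solute carriers for sugars, amino acids, metals and mitochondrial substrates. Of the 120 members, 39 were higher and 36 lower in cDC1 (62.5%), against 44.0% of all genes tested and 55.9% of protein-coding genes at the same level. Of the 86 members at 10 CPM or more in every group of experiment 1, 51 differed (59.3%). At 2-fold or more, 18 were higher and 20 lower, and 22.3% of all genes passed that rule. The median absolute log2 difference was 0.624 for the members, 0.539 for all genes and 0.411 for genes at the same level. No member that passed the test had overlapping libraries. The same held in every other comparison, so it does not set these calls apart.

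**Figure D1:**
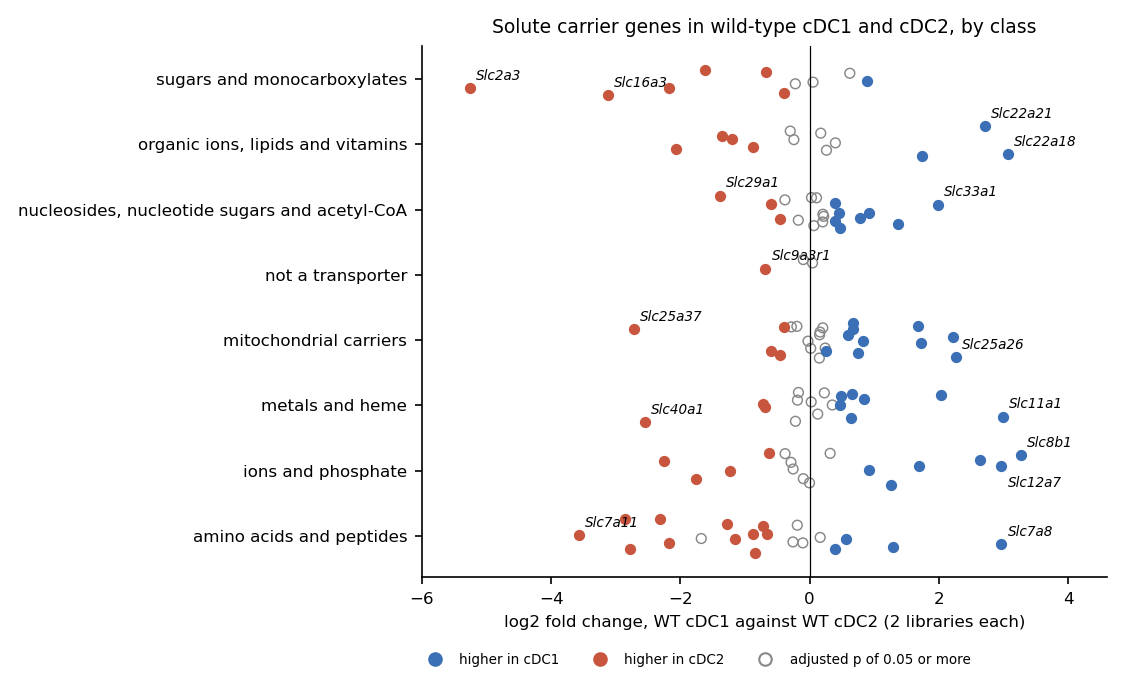
Log2 fold change of WT cDC1 over WT cDC2 for the 120 members, by class of Slc family, with each point 1 gene, filled where the adjusted p is below 0.05 (blue higher in cDC1, red higher in cDC2) and open otherwise. Filled points lie mostly below 0 for amino acid and sugar carriers (11 lower and 4 higher, 6 lower and 1 higher) and mostly above 0 for mitochondrial and metal carriers (10 higher and 4 lower, 7 higher and 3 lower).

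Among the 10 carriers of sugars and monocarboxylates, 6 were lower and 1 higher in cDC1. The widest gap of any member was that of Slc2a3, which encodes the high-affinity glucose transporter GLUT3. It stood at 4.17 ± 0.72 CPM in WT cDC1 and 159.7 ± 12.2 in WT cDC2, a 38.2-fold difference (log2 -5.25, SE 0.16, adjusted p = 2.74e-12). Slc16a3, the lactate exporter MCT4, was 8.69-fold lower in cDC1 at 1.30 ± 0.56 against 11.45 ± 6.0 CPM (adjusted p = 0.000229). Its cDC2 libraries, at 7.19 and 15.7 CPM, lay apart from each other but above both cDC1 libraries. Slc37a2, a sugar-phosphate exchanger, and Slc2a6, a lysosomal hexose transporter, were 4.54-fold and 3.08-fold lower in cDC1, the latter lost without WT cDC1 replicate 2 (adjusted p = 0.0644). Slc2a1, the basal glucose transporter GLUT1, differed less, at 16.3 against 26.2 CPM (log2 -0.68).

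Of the 20 amino acid and peptide carriers, 11 were lower and 4 higher in cDC1, with a class median of -0.79. Slc7a11, which encodes the xCT subunit that imports cystine in exchange for glutamate, stood at 1.02 and 1.24 CPM in the cDC1 libraries and 14.3 and 12.8 in the cDC2 libraries (log2 -3.57, adjusted p = 1.29e-07). Slc15a3 and Slc15a4, the endolysosomal peptide and histidine transporters, were 7.21-fold and 4.97-fold lower in cDC1. Slc6a12, a betaine and GABA transporter, was 6.86-fold lower, and Slc43a2, the large neutral amino acid transporter LAT4, was 4.53-fold lower at 11.6 ± 1.7 against 52.3 ± 1.1 CPM. Slc7a7, a light chain that exports cationic amino acids, was 1.80-fold lower. The glutamine carriers Slc38a1 and Slc38a2 were 2.22-fold and 2.43-fold lower. Slc7a8, which encodes LAT2, a light chain that exchanges neutral amino acids in complex with the SLC3A2 heavy chain, went the other way, at 16.1 ± 0.67 CPM in cDC1 and 2.07 ± 0.26 in cDC2 (log2 2.96, adjusted p = 1.07e-06). Slc3a2 itself stood at 189 ± 31 against 216 ± 27 CPM and did not pass the test (adjusted p = 0.237).

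Among the 17 carriers of metals and heme, 7 were higher and 3 lower in cDC1. Slc11a1, also called Nramp1, exports divalent metals from the phagolysosome. It stood at 211 and 210 CPM in WT cDC1 and 27.9 and 25.1 in WT cDC2, a 7.94-fold difference (log2 2.99, SE 0.18, adjusted p = 6.39e-09). Its paralog Slc11a2, which carries iron out of endosomes, was 1.80-fold higher, and Slc31a2, a copper transporter of endosomes, was 4.10-fold higher. The zinc importer Slc39a1 was 1.38-fold higher (lost without WT cDC1 replicate 2, adjusted p = 0.0564), and the heme transporter Slc48a1 did not pass, at 23.0 ± 3.0 against 26.2 ± 2.1 CPM. Slc40a1, ferroportin, the iron exporter of the plasma membrane, was lower in cDC1 at 11.5 ± 5.9 against 67.1 ± 18.0 CPM (log2 -2.55, adjusted p = 0.00448). Ferroportin is abundant in red pulp macrophages. The summed CPM of 10 marker genes of those macrophages was 125 to 227 over the cDC1 libraries of experiment 1 and 566 to 752 over the cDC2 libraries, so it moved with Slc40a1. In WT cDC2, where the sum was 658 to 685, Adgre1 alone had a mean of 362 CPM. The most abundant of the 10 in WT cDC1 was Hmox1, at 70.9. The part of these markers in the result was not tested.

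Mitochondrial carriers made 10 higher and 4 lower calls among 23. Slc25a5 was 1.59-fold higher in cDC1, at 1676 ± 43 against 1054 ± 3.7 CPM. Slc25a20, which brings acylcarnitines into mitochondria for fatty acid oxidation, was 3.30-fold higher. Slc25a38, the glycine carrier used in heme synthesis, was 3.20-fold higher, Slc25a24, an ATP-magnesium/phosphate carrier, 4.63-fold, and Slc25a26, the carrier of S-adenosylmethionine, 4.80-fold. Slc25a37, mitoferrin, which carries iron into mitochondria, was 6.61-fold lower. Among the 16 carriers of ions and phosphate, 6 were higher and 4 lower. Slc8b1 stood at 396.5 ± 47.4 CPM in cDC1 and 41.2 ± 4.8 in cDC2 (9.62-fold), the potassium-chloride cotransporter Slc12a7 was 7.82-fold and the phosphate transporter Slc20a2 6.22-fold higher. Slc12a2, the sodium-potassium-chloride cotransporter NKCC1, was 4.76-fold lower.

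Carriers of nucleosides, nucleotide sugars and acetyl-CoA gave 8 higher and 3 lower calls among 19. Slc33a1, which brings acetyl-CoA into the endoplasmic reticulum, was 3.95-fold higher in cDC1, and the nucleoside transporter Slc29a1 was 2.62-fold lower. The lysosomal nucleoside transporter Slc29a3 stood at 40.1 ± 7.3 against 52.25 ± 7.5 CPM and did not pass the test. Among the 12 carriers of organic ions, lipids and vitamins, 3 were higher and 4 lower. Slc22a18 and Slc22a21 were 8.36-fold and 6.53-fold higher in cDC1, the lysosomal Slc46a3 was 1.83-fold lower, and the choline transporter-like gene Slc44a2 was 4.20-fold lower at 89.5 against 376 CPM. Slc22a21 neighbours its paralog Slc22a5 on chromosome 11, which was also higher (3.33-fold), and reads could be split between them. Of 12 members listed as endolysosomal whatever their substrate, 4 were higher and 6 lower in cDC1.

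**Figure D2:**
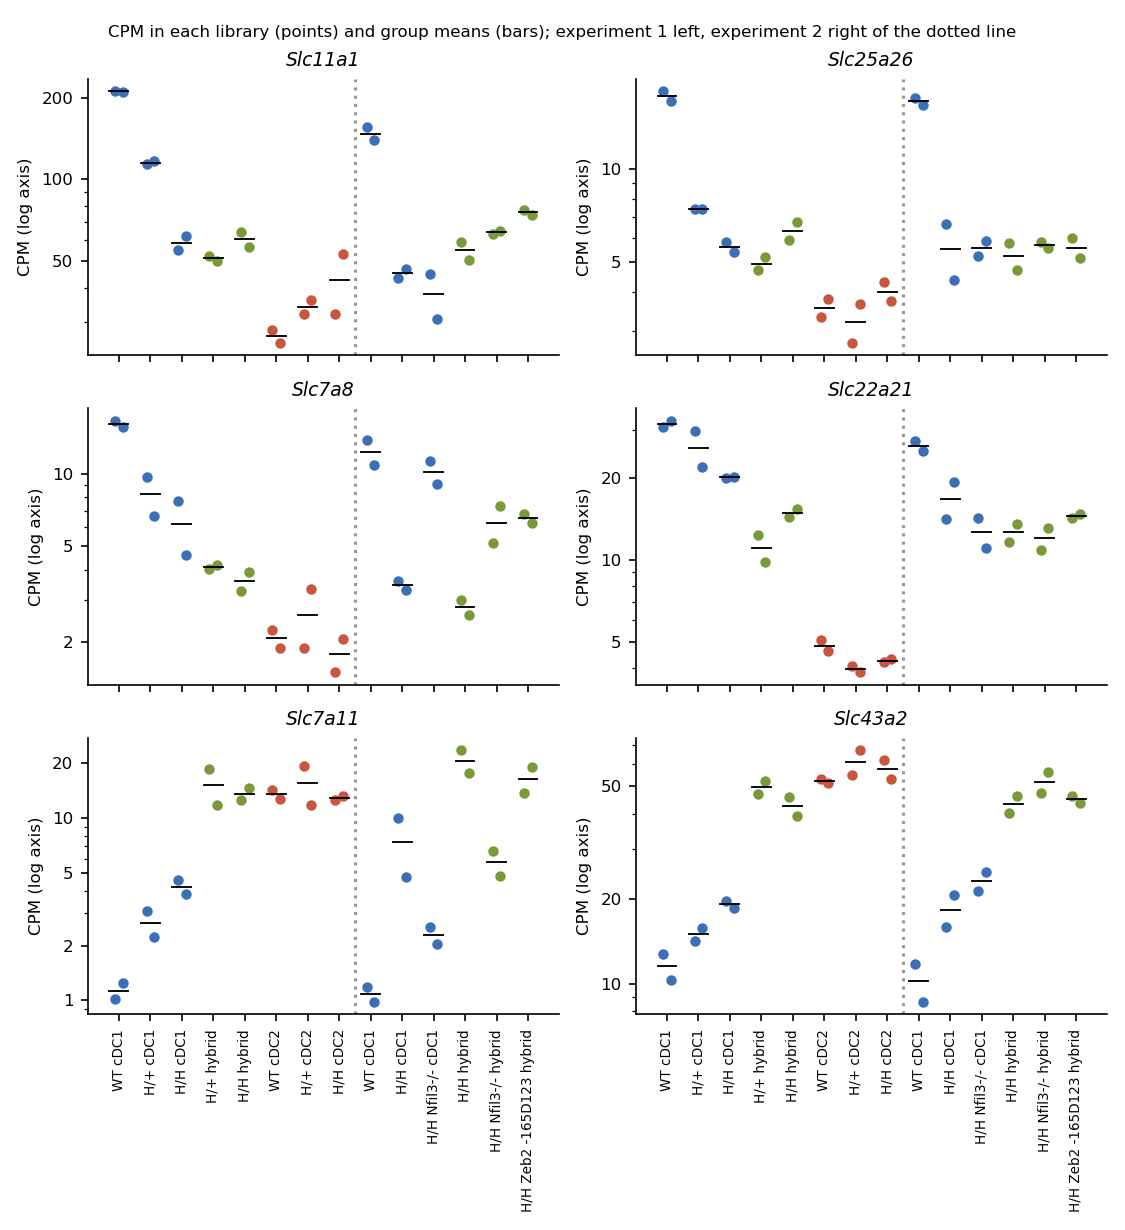
TMM-scaled CPM (log axis) of the 6 members called in H/H cDC1 in both experiments, with each point 1 library, bars the mean of 2, and cDC1 in blue, hybrid cells in green and cDC2 in red. The WT cDC1 points of Slc11a1 lie at 139 to 211 CPM and those of H/H cDC1 at 43.4 to 61.7, without overlap.

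In cDC1 with the altered Irf8 enhancer, Slc11a1 and Slc25a26 were lower with 1 or with 2 altered copies, and further carriers passed with 2. In experiment 1, 3 members were higher and 8 lower in H/H cDC1 than in WT cDC1 (9.17%), against 4.17% of all genes and 6.79% of protein-coding genes at the same level. In experiment 2, with its own WT and H/H libraries, 7 were higher and 10 lower (14.2%), against 6.32% of all genes (4.37% higher, 1.94% lower) and 8.9% of genes at the same level. Among the 86 members present in every group the counts were 4 (4.65%) and 9 (10.5%), the first below the share of genes at the same level. Those genes needed that level in 1 group only, so the shares are not like for like. Leaving out H/H replicate 1 or WT replicate 2 of experiment 1 left 6 calls each. Leaving out WT replicate 1 or 2 of experiment 2 left 11 and 6. In experiment 1 every second replicate carried Xist, and with Xist as a term 21 members were called in H/H cDC1 and 6 in H/+ cDC1. Without the filter on low counts these were 20 and 6, and with DESeq2 18 and 6. A fit of only the 2 groups compared gave 6 for H/H cDC1 of experiment 2. In H/+ cDC1, 2 members were lower and none higher (1.67%), against 1.47% of all genes and 2.26% of genes at the same level, and 1 was called without H/+ replicate 1, H/+ replicate 2 or WT replicate 2. Of the 22 members called in either experiment, 6 were called in both, all 6 in the same direction, and none went opposite ways.

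Slc11a1 (ENSMUSG00000026177, chromosome 1, 74375195 to 74386062, plus strand, GRCm38) stood at 211 and 210 CPM in WT cDC1, 114 and 117 in H/+ cDC1, and 55.25 and 61.7 in H/H cDC1 of experiment 1. By library values the level was lower with each altered enhancer copy, without overlap between the 3 genotypes. H/H cDC1 was not tested against H/+ cDC1. H/H cDC1 differed from WT by -1.85 in log2 (SE 0.17, adjusted p = 1.65e-05), and H/+ cDC1 by -0.87 (adjusted p = 0.021), which no longer passed when any 1 of its 4 libraries was left out (adjusted p = 0.0516 to 0.149). In experiment 2 the WT libraries stood at 155.5 and 139 CPM and the H/H libraries at 43.4 and 47.1 (log2 -1.70, SE 0.16, adjusted p = 2.41e-06). IRF8 is known from macrophages to act on the promoter of this gene. Slc25a26 (ENSMUSG00000045100, chromosome 6, 94500331 to 94604672, plus strand) stood at 17.8 and 16.5 CPM in WT, 7.40 and 7.45 in H/+ and 5.83 and 5.39 in H/H cDC1. It was lower by test in H/+ (log2 -1.21, adjusted p = 0.0021) and in H/H (log2 -1.61, adjusted p = 4.75e-05). In experiment 2 it stood at 16.96 and 16.1 CPM in WT and 6.65 and 4.37 in H/H (log2 -1.59, adjusted p = 0.00013).

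The other fallers shared by both experiments were Slc7a8 and Slc22a21. Slc7a8 (ENSMUSG00000022180, chromosome 14, 54722209 to 54781946, minus strand) stood at 16.6 and 15.7 CPM in WT, 9.74 and 6.67 in H/+ and 7.71 and 4.62 in H/H cDC1. Slc7a8 did not pass in H/+ against WT by edgeR (adjusted p = 0.0909). Its H/H differences were -1.39 (adjusted p = 0.00767) and, in experiment 2, -1.84 (13.8 and 10.9 against 3.58 and 3.30 CPM, adjusted p = 6.14e-05). The first was lost without H/H replicate 2 (adjusted p = 0.111) or WT replicate 1 (0.0518). Slc22a21 (ENSMUSG00000063652, chromosome 11, 53949965 to 53980332, minus strand), a carnitine transporter, fell by 0.65 and 0.64 (adjusted p = 0.0171 and 0.042). Both calls were lost on leaving out single libraries, with adjusted p from 0.0652 to 0.14 in experiment 1 and up to 0.313 in experiment 2.

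The shared risers were Slc7a11 and Slc43a2, both amino acid carriers that were lower in WT cDC1 than in cDC2. Slc7a11 (ENSMUSG00000027737, chromosome 3, 49892526 to 50443614, minus strand) stood at 1.02 and 1.24 CPM in WT, 3.10 and 2.23 in H/+ and 4.57 and 3.85 in H/H cDC1 (H/H against WT log2 1.88, adjusted p = 0.00167). Slc7a11 did not pass in H/+ against WT by edgeR (adjusted p = 0.0691). In experiment 2 it stood at 1.19 and 0.981 CPM in WT and at 10.1 and 4.775 in H/H (log2 2.76, adjusted p = 0.000263). The 2 H/H libraries differ from each other but both exceed both WT libraries. Slc43a2 (ENSMUSG00000038178, chromosome 11, 75531694 to 75577575, plus strand) rose by 0.73 and 0.84 (adjusted p = 0.00616 and 0.00766). It stood at 19.1 ± 0.73 against 11.6 ± 1.7 CPM in experiment 1 and at 18.2 ± 3.3 against 10.2 ± 2.2 in experiment 2. Without single libraries its adjusted p rose to 0.116 in experiment 1 (WT replicate 2) and 0.114 in experiment 2 (WT replicate 2).

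**Figure D3:**
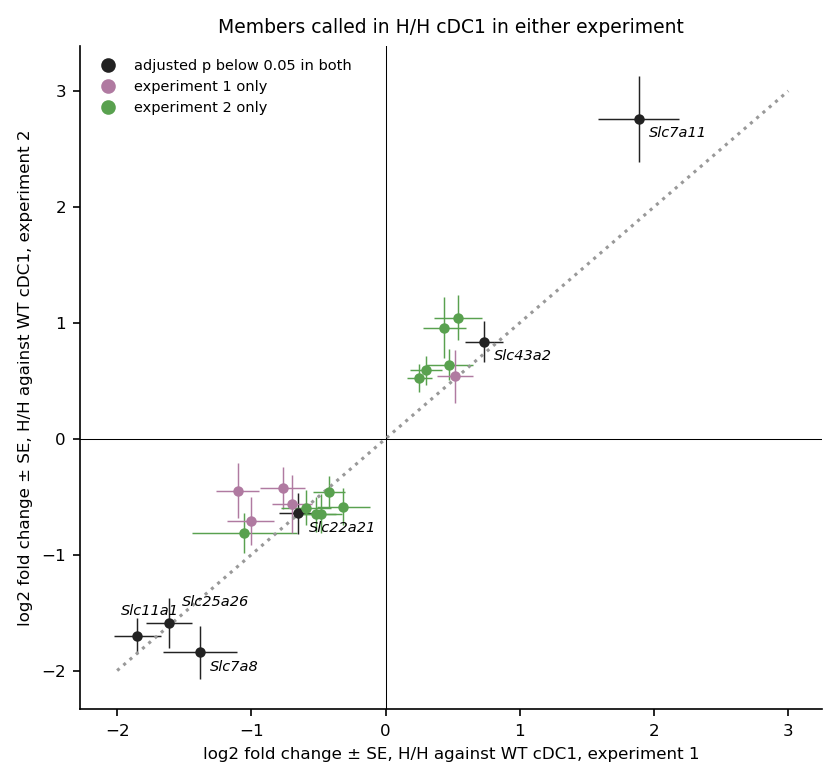
Log2 fold change of H/H over WT cDC1 in experiment 1 (x axis) and experiment 2 (y axis), for the 22 members called in either, with bars of 1 SE and a dotted line of equal change. The 6 called in both are black: Slc11a1, Slc25a26, Slc7a8 and Slc22a21 lie below 0 and Slc7a11 and Slc43a2 above 0 in both.

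The sequences upstream of the member with the largest H/H fall in experiment 1 and of the one with the largest rise are shown because the letters of IRF8 sites and of amino acid response elements could be searched in them. They come from RefSeq on GRCm38.p6, 5′ to 3′ on the gene's strand, and end at the base before the annotated gene. The Slc11a1 stretch is chr1:74374953-74375194 (plus strand, 242 bases) and the Slc7a11 stretch is chr3:50443615-50443863 (minus strand, 249 bases). Capitals mark matches to TGATGNAA, the letters of the amino acid response element bound by ATF4, on either strand.
Slc11a1: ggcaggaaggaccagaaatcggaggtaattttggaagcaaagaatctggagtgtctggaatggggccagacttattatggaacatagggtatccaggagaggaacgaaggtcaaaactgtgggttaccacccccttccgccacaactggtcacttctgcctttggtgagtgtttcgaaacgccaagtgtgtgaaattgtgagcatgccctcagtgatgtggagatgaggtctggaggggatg
Slc7a11: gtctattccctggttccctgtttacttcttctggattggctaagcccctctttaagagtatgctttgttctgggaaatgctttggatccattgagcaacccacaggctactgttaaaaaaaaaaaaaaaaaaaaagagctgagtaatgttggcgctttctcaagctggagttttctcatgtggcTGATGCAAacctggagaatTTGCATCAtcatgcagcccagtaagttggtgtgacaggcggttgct
The 2 matches upstream of Slc7a11 lie at 66 to 59 and at 47 to 40 bases before the RefSeq start, and 3.53% of 27025 promoters hold this motif in the 250 bases before their start. Neither stretch holds the ETS-IRF composite letters GGAANNGAAA (2.38% of promoters), the interferon response letters GAAANNGAAA (3.04%), the NFIL3 letters TTANGTAA (2.11%), the E-box CACCTG of ZEB2 (17.1%), or TGACNNNGC of the antioxidant response (10.1%). Both strands were searched, and the first 2 motifs can overlap. The promoter table held 87 of the 120 members, of which 3 matched the first motif, 1 the second, 1 the NFIL3 letters, 13 the E-box, 16 the antioxidant letters and 4 the amino acid response letters. A match is a run of letters and no evidence that a factor binds there.

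Further members passed in 1 experiment only. In experiment 1 these were Slc12a2 (log2 -1.10), the magnesium transporter Slc41a1 (-1.005), Slc20a2 (-0.77) and Slc35e4 (-0.70), all lower in H/H, and the GABA transporter Slc6a13 (0.52), higher. Of these, the calls of Slc12a2 and Slc41a1 held without any 1 of the 4 libraries. In experiment 2 the monocarboxylate transporter Slc16a6 (-0.81), Slc31a2 (-0.65), Slc33a1 (-0.65), Slc8b1 (-0.59), Slc25a24 (-0.59) and Slc25a38 (-0.46) were lower, and Slc37a2 (1.04), Slc2a3 (0.96), Slc29a3 (0.64), Slc44a2 (0.59) and Slc38a1 (0.52) were higher. Each of these 11 calls was lost on leaving out at least 1 of the 4 libraries. The experiment 2 calls can be set against the lineage calls of experiment 1, which share no library with them. Of the 39 members higher in WT cDC1, 9 fell in H/H cDC1 and none rose, and of the 36 higher in WT cDC2, 6 rose and none fell. In experiment 1, whose WT cDC1 libraries enter both contrasts, 6 of the 39 fell and none rose, and 3 of the 36 rose and 2 fell. Shares over all genes of each lineage are not given here, so these splits are not shown to be particular to solute carriers. The marker sums of both lineages moved as well. In experiment 1 the cDC1 sum was 3740 to 3860 CPM in H/+ cDC1 and 2980 to 3180 in H/H cDC1, below the WT range, and the cDC2 sum was 114 to 140 and 211 to 232, above the WT range of 32.7 to 36.5. In experiment 2 the cDC1 sum was 5560 to 6080 in WT and 2890 to 2920 in H/H cDC1, and the cDC2 sum was 25.8 to 29.9 and 320 to 564. Their part in these differences was not tested.

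No member passed in H/+ or H/H cDC2 against WT cDC2 by edgeR, where 0.0249% and 0.0811% of all genes did, and 0.0254% and 0.152% of genes at the same level. DESeq2 also called 0 in both. At an unadjusted p below 0.05 there were 4 and 5 members, with 5.17% and 3.51% of all genes. Leaving out H/H cDC2 replicate 1 gave 1 member. Slc11a1 stood at 27.9 and 25.1 CPM in WT cDC2, 32.2 and 36.1 in H/+ and 32.0 and 53.3 in H/H, so no H/+ or H/H cDC2 library was below a WT one. The H/H effect was also compared between cDC1 and cDC2 by an interaction term, which 3 of 120 members passed, Slc11a1, Slc25a26 and Slc7a11, against 1.9% of all genes. This count was 6 with the Xist term or with DESeq2 and 7 without the filter on low counts.

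For most lineage-dependent solute carriers, hybrid cells lay between the cDC1 and the cDC2 of their own genotype. Against H/+ cDC1, 20 members were higher and 23 lower in H/+ hybrid cells (35.8%), against 16.5% of all genes (9.77% higher, 6.68% lower) and 23.3% of genes at the same level. Against H/+ cDC2, 23 were higher and 17 lower (33.3%), against 19.0% and 26.2%. In H/H hybrid cells of experiment 1, 13 were higher and 6 lower than in H/H cDC1 (15.8%, against 7.85% and 11.6%), and 28 higher and 24 lower than in H/H cDC2 (43.3%, against 25.4% and 34.4%). Leaving out any 1 library of H/H cDC1 or H/H hybrid cells took the count of 19 to 7 or 8, and a fit of only the 2 groups compared gave 31. In experiment 2, 18 were higher and 4 lower than in H/H cDC1 (18.3%, against 12.5%, with 7.24% higher and 5.25% lower, and 16.9%), with 10 and 12 calls without hybrid replicate 1 and 2. Among the 86 members present in every group, 23 were called in H/+ hybrid cells against cDC1 (26.7%) and 23 against cDC2 (26.7%). In H/H hybrid cells of experiment 1 there were 10 against cDC1 (11.6%) and 34 against cDC2 (39.5%), and in experiment 2 there were 12 (14%). The H/+ share against cDC2 and both H/H shares against cDC1 lay near or below those of genes at the same level. As those genes needed the level in 1 group only, the shares are not like for like.

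The direction of these differences followed the WT lineages. Of the 36 members higher in WT cDC2, 19 were higher in H/+ hybrid cells than in H/+ cDC1, and of the 39 higher in WT cDC1, 22 were lower. In experiment 2, whose libraries took no part in the WT cDC1 to cDC2 contrast, 14 of the 36 were higher and 4 of the 39 lower, and 4 of the 45 others were higher. Among the 38 members at least 2-fold apart in the WT lineages, the hybrid level was placed on a log scale where 0% is the cDC2 and 100% the cDC1 level of the same genotype. In H/+, 33 of 38 lay between the lineages with a median of 48.4%, and 20 were nearer cDC2. In H/H, 28 of 38 lay between with a median of 71.2%, and 10 were nearer cDC2. Matching counts over all genes higher in either lineage are not given here, so neither pattern is shown to be particular to solute carriers. The difference between the medians was not tested, and each is relative to cDC1 and cDC2 levels that themselves differ between the genotypes. Slc11a1 lay at 33.5% in H/+ and at 110% in H/H, where the gap between cDC1 and cDC2 was 0.456 log2 units, against 1.75 in H/+. Tested directly between H/H and H/+ hybrid cells, 1 member passed (0.131% of all genes and 0.216% of those at the same level did): Slc2a3 at 17.4 ± 0.33 against 32.0 ± 1.4 CPM (log2 -0.88, adjusted p = 0.0175), lost without any 1 of the 4 libraries.

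**Figure D4:**
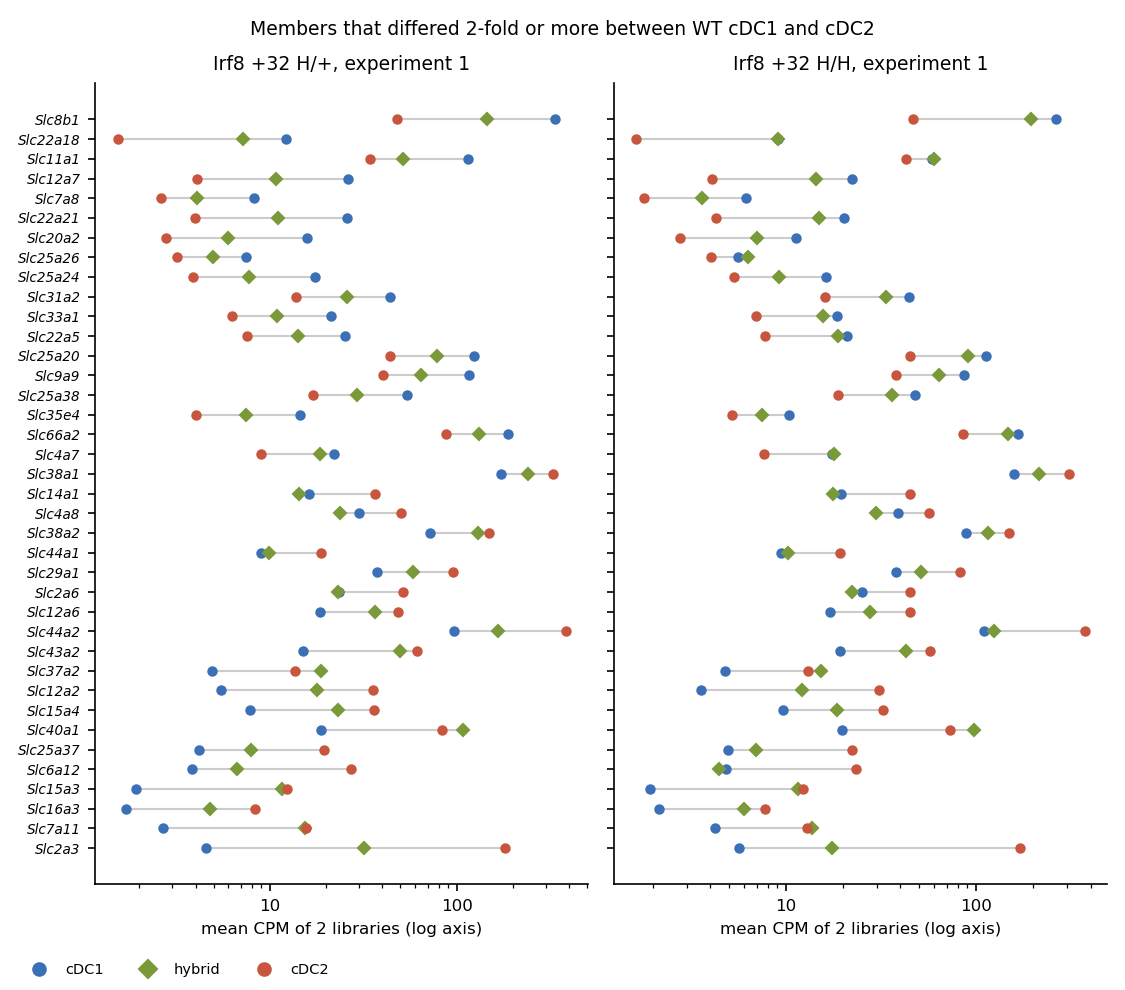
Mean CPM (log axis) of cDC1 (blue circles), hybrid cells (green diamonds) and cDC2 (red circles) of H/+ and H/H mice in experiment 1, for the 38 members at least 2-fold apart in WT. The diamond lies between the circles for 33 members in H/+ and 28 in H/H.

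Several carriers of sugars, peptides, amino acids and ions were higher in hybrid cells than in cDC1 in all 3 comparisons. Slc15a3 was higher in all 3 comparisons, by 2.59 in H/+, 2.61 in H/H and 2.21 in experiment 2 (log2 differences), where in the last it stood at 21.0 ± 0.41 against 4.52 ± 0.68 CPM (adjusted p = 3.26e-06). Slc2a3 was higher by 2.81, 1.62 and 1.60, and Slc7a11 by 2.52, 1.70 and 1.49, the last lost without hybrid replicate 1 (adjusted p = 0.0501). Slc37a2 was higher by 1.93, 1.68 and 1.47, Slc12a2 by 1.72, 1.77 and 1.36, Slc43a2 by 1.73, 1.16 and 1.24, and Slc15a4 by 1.57, 0.95 and 1.04. The H/H call of Slc15a4 in experiment 1 held only without hybrid replicate 2 (adjusted p up to 0.113 otherwise). For Slc7a11 the H/+ hybrid libraries, at 18.8 and 11.9 CPM, overlapped those of H/+ cDC2, whereas for Slc2a3 they stood 5.64-fold below H/+ cDC2 (32.0 ± 1.4 against 180 ± 11 CPM). Slc15a3 also did not pass against H/+ cDC2 (11.6 ± 0.60 against 12.4 ± 3.7 CPM). Against cDC2 the larger differences beside Slc2a3 (log2 -2.50 in H/+ and -3.29 in H/H) were the lower levels of Slc6a12 (-2.01 and -2.39) and Slc41a1 (-1.47 and -1.63) and the higher levels of Slc22a18 (2.22 and 2.48) and Slc8b1 (1.61 and 2.07).

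By class, the 20 amino acid carriers gave 9 higher and 3 lower calls in H/+ hybrid cells, 6 and 1 in those of H/H mice in experiment 1, and 7 and 0 in experiment 2. The 10 sugar carriers gave 2, 3 and 3 higher calls and none lower. The 16 ion carriers gave 3 higher and 4 lower, 3 and 2, and 4 and 0. The 23 mitochondrial carriers gave 1 higher and 5 lower, 0 and 2, and 0 and 3, and the 17 metal and heme carriers 1 and 3, 1 and 0, and 0 and 0. Of the 12 endolysosomal members, 5 were higher and 2 lower, 4 and 1, and 5 and 0. Of all genes, 16.5%, 7.85% and 12.5% were called in either direction in these 3 comparisons with cDC1. The classes were not tested as sets. Slc25a24 was lower in all 3 comparisons (log2 -1.18, -0.82 and -1.04), the H/H call of experiment 1 being lost without any 1 library (adjusted p = 0.0857 to 0.134). In H/+ hybrid cells the larger falls were those of Slc20a2 (-1.41), Slc12a7 (-1.27), Slc22a21 (-1.22), Slc8b1 (-1.20) and Slc11a1 (-1.17, at 52.5 and 50.1 against 113.5 and 117 CPM). Slc40a1 was higher by 2.52 and 2.30 in experiment 1. The H/+ call held in 1 of 4 fits that each left out 1 library (adjusted p up to 0.0849), the H/H call was lost without any 1 of its 4 libraries (adjusted p = 0.0773 to 0.22), and in experiment 2 it did not pass. The red pulp macrophage sum was 620 to 709 CPM in the hybrid libraries of experiment 1, above that of cDC1, and its part in the Slc40a1 difference was not tested.

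Few members lay outside both lineages by test, near or below the share of all genes. By mean level, 5 of the 38 members 2-fold apart in WT lay outside both in H/+ hybrid cells (2 above, 3 below). In H/H hybrid cells 10 did (6 above, 4 below). Some of these lay only just outside, such as Slc2a6 at 102% in H/+ and Slc4a7 at 104% in H/H on the scale above. Matching counts by mean level over all genes are not given here. By edgeR against both cDC1 and cDC2, 2 of the 120 members were beyond both in H/+, against 1.28% of all genes. In H/+ hybrid cells Slc29a3 was above both, at 95.3 ± 13.2 CPM against 49.0 ± 12.95 in cDC1 and 64.45 ± 1.3 in cDC2 (adjusted p = 0.00138 and 0.0345, the second up to 0.225 with 1 library left out). Slc52a2, a riboflavin transporter, was below both, at 18.3 ± 0.90 against 26.2 ± 1.1 and 28.3 ± 0.95 CPM (adjusted p = 0.00262 and 0.000557). In H/H hybrid cells 0 members were beyond both by edgeR, against 1.03% of all genes. At an unadjusted p 2 were above and 1 below, and DESeq2 called 1 above and 1 below.

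Loss of Nfil3, a transcription factor of the bZIP family that is needed for cDC1 development, changed a small group of carriers in H/H cells. In H/H Nfil3-/- cDC1, 1 member was higher and 6 lower than in H/H cDC1 (5.83%), against 3.03% of all genes and 3.97% of those at the same level. In H/H Nfil3-/- hybrid cells 4 were higher and 8 lower than in H/H hybrid cells (10%), against 3.73% and 4.97%. Among the 86 members present in every group, 1 (1.16%) and 4 (4.65%) were called, both below the shares of genes at the same level. The latter genes needed that level in 1 group of experiment 1 only, so the shares are not like for like. The cDC1 count was 3 or 4 without either Nfil3-/- replicate or H/H replicate 1. The hybrid count was 6 and 5 without H/H replicate 1 and 2, and 2 without Nfil3-/- replicate 2. It was 21 with DESeq2, 22 without the filter on low counts and 30 in a fit of only the 2 groups compared, and the cDC1 count was 11 without the filter.

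Slc7a11 stood at 10.1 and 4.775 CPM in H/H cDC1 and 2.54 and 2.04 in Nfil3-/- cDC1 (log2 -1.69, adjusted p = 0.0136). In hybrid cells it stood at 23.7 and 17.8 against 6.63 and 4.83 CPM (log2 -1.86, adjusted p = 0.00341). Slc12a2 stood at 12.99 and 7.45 against 5.03 and 4.59 CPM in cDC1 (log2 -1.08, adjusted p = 0.0291) and at 27.3 and 25.0 against 9.38 and 7.74 in hybrid cells (log2 -1.61, adjusted p = 0.00109). Libraries did not overlap in either cell type. Slc6a12 was lower by 1.47 and 1.63, Slc2a3 by 1.39 and 1.03, and Slc4a7, a sodium-bicarbonate cotransporter, by 1.02 and 1.06. Slc4a7 stood at 27.4 ± 2.1 against 55.4 ± 13.8 CPM in cDC1 and 28.35 ± 0.045 against 59.05 ± 6.7 in hybrid cells. Slc7a8 rose in both, with 11.35 and 9.03 against 3.58 and 3.30 CPM in cDC1 (log2 1.57, adjusted p = 0.000976) and 5.17 and 7.33 against 2.98 and 2.59 in hybrid cells (log2 1.17, adjusted p = 0.0116). Only the calls of Slc4a7 in both cell types, Slc7a8 in cDC1 and Slc12a2 in hybrid cells held without any 1 of the 4 libraries of their comparison. The cDC1 call of Slc7a11 held only without H/H replicate 2 (adjusted p up to 0.178 for the other 3), and its hybrid call was lost without Nfil3-/- replicate 2 (0.0572).

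Some members passed in 1 cell type only. Slc16a6 was lower in Nfil3-/- cDC1 (-0.73). In Nfil3-/- hybrid cells Slc20a1, a phosphate transporter (-0.86), the choline transporter-like Slc44a1 (-0.72) and Slc38a2 (-0.63) were lower, and Slc12a7 (0.80), the bicarbonate transporter Slc4a8 (0.78) and Slc8b1 (0.65) were higher. The difference between the effects in hybrid cells and cDC1 was tested, and 0 of 120 members passed by edgeR or by DESeq2 (3 at an unadjusted p), against 0.00689% of all genes, so no member's effect was shown to differ between the cell types. Slc11a1 did not pass in either, at 45.1 and 30.8 against 43.4 and 47.1 CPM in cDC1 and 63.1 and 64.8 against 59.1 and 50.7 in hybrid cells. Neutrophil markers moved with this genotype, with sums of 28.8 to 34.9 CPM in Nfil3-/- cDC1 against 0.446 to 0.46 in H/H cDC1, and 49.8 to 95.3 against 4.23 to 6.03 in the hybrid cells. The lineage markers moved too. The cDC2 sum was 132 to 146 CPM in Nfil3-/- cDC1 against 320 to 564 in H/H cDC1, and 866 to 991 against 1590 to 2040 in the hybrid cells. The cDC1 sum was 3500 to 3600 against 2890 to 2920, and 2780 to 2910 against 1970 to 2050. Only the Nfil3-/- second replicates carried Xist among these libraries. With Xist as a term, the calls of Slc12a2 (adjusted p = 0.0866) and Slc16a6 (0.13) in cDC1 and of Slc2a3 (0.0678), Slc12a7 (0.0694) and Slc44a1 (0.0725) in hybrid cells were lost. The part of the neutrophil and lineage markers in these results was not tested.

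**Figure D5:**
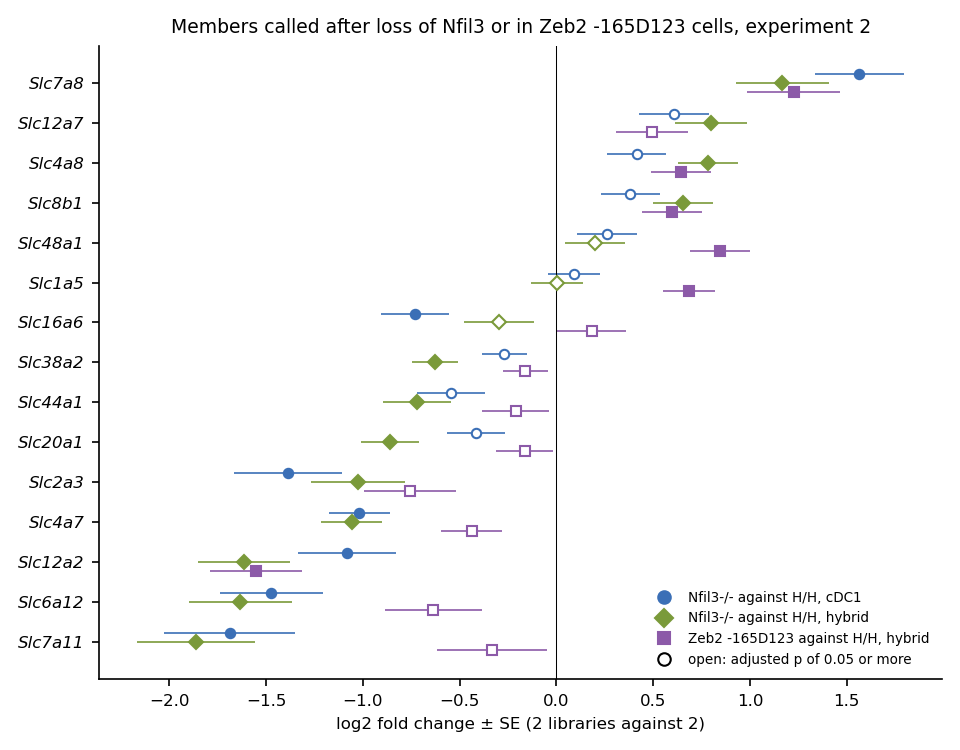
Log2 fold change of the members called for loss of Nfil3 (in H/H cDC1 and H/H hybrid cells) or for the Zeb2 -165D123 allele (in H/H hybrid cells), with bars of 1 SE and open symbols where the adjusted p is 0.05 or more. Slc12a2 lies below 0 and Slc7a8 above 0 in all 3 comparisons, of which both hybrid comparisons use the same H/H hybrid libraries.

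The Zeb2 -165D123 allele is a change in an enhancer upstream of Zeb2. In H/H hybrid cells with it, 5 members were higher and 1 lower than in H/H hybrid cells (5%), against 4.03% of all genes and 5.1% of genes at the same level, so the share lay near the background. The counts were 2 and 3 without -165D123 replicate 1 and 2, and 1 and 2 without H/H hybrid replicate 1 and 2. A fit of only the 2 groups compared gave 11, and 4 of the 86 members present in every group were called (4.65%). The cDC2 marker sum was 1280 to 1290 CPM against 1590 to 2040 in H/H hybrid cells, and the cDC1 sum 2390 to 2790 against 1970 to 2050. Their part in the differences was not tested. Slc12a2 fell to 8.785 and 9.02 CPM from 27.3 and 25.0 (log2 -1.55, adjusted p = 0.0017). Slc7a8 rose to 6.83 and 6.25 CPM from 2.98 and 2.59 (log2 1.23, adjusted p = 0.0087). The heme transporter Slc48a1 rose from 36.9 to 66.2 CPM (log2 0.84, adjusted p = 0.00555), and Slc1a5, the glutamine transporter ASCT2, from 99.0 to 159 CPM (log2 0.68, adjusted p = 0.00883). Slc4a8 and Slc8b1 rose by 0.64 and 0.60. Of the 6 calls, that of Slc12a2 held without any 1 of the 4 libraries (adjusted p up to 0.0293), and that of Slc7a8 held only without -165D123 replicate 2. Slc12a2, Slc7a8, Slc4a8 and Slc8b1 were also called, in the same directions, in Nfil3-/- hybrid cells. Both comparisons share the H/H hybrid libraries.

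Slc40a1 stood at 276 and 297 CPM in the -165D123 hybrid libraries and at 58.9 and 28.4 in the H/H hybrid libraries (log2 2.71, adjusted p = 0.0562 by edgeR and 0.000106 by DESeq2). The libraries did not overlap, and the edgeR test was not passed. The red pulp macrophage sum was 1020 to 1030 CPM against 425 to 531, with all 10 marker genes at 1 CPM or more in both groups. Its most abundant gene was Hmox1 at a mean of 295 CPM with the allele and Adgre1 at 178 without it. The erythroid marker sum was 75.6 to 109 against 15.1 to 57.7. The part of both marker sums in the values of Slc40a1 and Slc48a1, both of which serve iron and heme recycling in macrophages, was not tested. Slc11a1 stood at 77.5 and 74.2 against 59.1 and 50.7 CPM and did not pass (adjusted p = 0.119).

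Other genes of the same pathways were counted from lists that the member rule did not use. Among 17 genes of glycolysis and lactate handling tested in WT cells, 11 were higher and 4 lower in cDC1. For this and the other WT counts below, 44.0% of all genes tested differed in either direction. The hexokinase gene Hk3 stood at 147 against 7.58 CPM and the lactate dehydrogenase gene Ldha at 945 against 425, opposite in direction to Slc2a3 and Slc16a3. In H/H Nfil3-/- cells 4 of the 17 glycolysis and lactate genes, Hk3, Ldha, Pfkp and Pkm, were higher in cDC1 and in hybrid cells. None was lower. Of all genes, 3.03% were called in that cDC1 comparison and 3.73% in that of hybrid cells, in either direction. Among 12 iron-handling genes, 5 were higher in WT cDC1 and 2 lower, the latter being the ferritin gene Fth1 and the transferrin receptor gene Tfrc. Among 18 genes of amino acid sensing and response, 7 were higher and 5 lower in WT cDC1. In H/H cDC1 of experiment 2 the genes Castor1, Chac1 and Sesn1 were higher and none lower. Of all genes, 4.37% were higher and 1.94% lower there. Of 25 transporter genes without the Slc stem, 7 were higher and 6 lower. The lysosomal lipid transporter family gene Spns3 stood at 15.1 CPM in WT cDC1 and 187 in cDC2, and the organic anion transporter gene Slco3a1 at 74.8 and 3.57.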

How the data were processed

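The series holds bulk RNA-seq of sorted splenic cDC populations, made with the SMARTer Ultra Low RNA kit from total RNA. The deposited values are estimated counts per gene (expected counts, 10.781% and 10.163% of them not whole in the 2 experiments), made by the authors with bcl2fastq, DRAGEN and edgeR per the submitters' processing notes. The genome build and the counter's settings are not given in the sources used here, and the kit is not stated to mark strand. Counts were rounded, and 287 repeated lines of 55774 were removed, which left 55487 genes. Coordinates and exon lengths came from GENCODE M21 (GRCm38), which held 55141 (99.38%) of the gene IDs.

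Each experiment was fitted on its own with all its libraries (16 and 12) in edgeR 4.0.16 under R 4.3.3. The fit used TMM scaling, filterByExpr by group (16036 and 14504 genes kept), robust quasi-likelihood fits (8 and 6 residual degrees of freedom, biological coefficient of variation 0.15 and 0.138) and Benjamini-Hochberg adjustment over all genes kept. Standard errors (SE) of log2 fold changes were taken as |log2 fold| over the root of the F statistic. Tables and figures used Python 3.11.15, pandas 2.3.3, numpy 2.4.6 and matplotlib 3.10.9. The fit was tested on simulated counts. Positions of hybrid cells used log2(CPM + 0.1). Replicates correlated at 0.974 to 0.985 (Pearson's r of log2 CPM, across genes, which are not independent replicates).

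The members and the gene lists were chosen with earlier results of these data known. Members named were a fixed list of metal, glucose, lactate, amino acid, peptide, nucleoside and mitochondrial carriers, the larger 2-fold changes of each comparison (up to 8 per direction, 5 for genotype effects), members called in both experiments for H/H cDC1, and those called for Nfil3 or Zeb2. The members nearest the rule's threshold, those of smaller effect in 1 experiment, and Hk3, Ldha, Spns3 and Slco3a1 were named after their values were seen. The interaction of the H/H effect with cell type was added after seeing the data. Alternatives were DESeq2 1.42.0, its size factors (RLE) in edgeR, no filter, only the 2 groups compared, a replicate block, an Xist term, and leaving out each library.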

Additional observations from a re-analysis of the deposited data

Results flagged for a closer look

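For 3 of 120 members the effect of H/H against WT differed between cDC1 and cDC2 by an interaction term in edgeR (adjusted over all genes). Of all genes, 1.9% passed it, so the count lay near the background. The term was added after seeing the data. For Slc11a1 the cDC1 effect minus the cDC2 effect was -2.53 on the log2 scale (SE 0.24, adjusted p = 3.75e-05). Both H/H cDC1 libraries lay below both WT cDC1 libraries, while both H/H cDC2 libraries lay above both WT cDC2 libraries. For Slc25a26 the difference was -1.78 (SE 0.25, adjusted p = 0.000901), and for Slc7a11 it was 1.95 (SE 0.39, adjusted p = 0.0136). The calls of Slc11a1 and Slc25a26 held under every alternative run. That of Slc7a11 was lost on leaving out 6 of the 8 libraries in turn (adjusted p = 0.0318 to 0.0862 over all 8).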

How the results depend on the processing

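With 2 libraries per group, 1 library often sets a count of calls. No result reversed. Without the filter on low counts, the number of members called was 6 (2 with it) for H/+ cDC1, 20 for H/H cDC1 of experiment 1 (11), 1 for H/H cDC2 (0), 2 for H/H against H/+ hybrid cells (1), 11 for Nfil3-/- cDC1 (7), 22 for Nfil3-/- hybrid cells (12) and 7 for the contrast of the H/H effect between the lineages (3). With DESeq2 it was 6 for H/+ cDC1, 18 for H/H cDC1 of experiment 1, 21 for Nfil3-/- hybrid cells and 6 for that contrast. With only the 2 groups compared it was 31 for H/H hybrid cells against cDC1 of experiment 1 (19), 6 for H/H cDC1 of experiment 2 (17), 30 for Nfil3-/- hybrid cells and 11 for -165D123 (6). The replicate numbers share no stated animal, litter or day, and deviations of same-numbered libraries correlated at 0.04 to 0.342 in experiment 1 and -0.205 to 0.231 in experiment 2, so they were not taken as pairs. The replicate block, which in experiment 1 equals the Xist term, gave 6 for H/+ cDC1, 21 for H/H cDC1 and 6 for the contrast between lineages, and moved the call of Slc22a21 in experiment 2 to an adjusted p of 0.0523. The cause of these shifts was not tested. Some settings also change the number of libraries or of genes in the fit, and the part of that was not tested either. Leaving out each library in turn gave 67 to 71 for WT cDC1 against cDC2 (75), 1 to 2 for H/+ cDC1, 6 to 8 for H/H cDC1 of experiment 1, 0 for H/+ cDC2, 0 to 1 for H/H cDC2, 30 to 37 and 32 to 35 for H/+ hybrid cells against cDC1 and cDC2, 7 to 8 and 35 to 41 for H/H hybrid cells, 0 for H/H against H/+ hybrid cells, 6 to 15 for H/H cDC1 and 10 to 18 for hybrid cells of experiment 2, 3 to 8 and 2 to 9 for Nfil3-/- cDC1 and hybrid cells, 1 to 3 for -165D123, 2 to 4 for the contrast between lineages and 0 for that between the Nfil3 effects. Of 406 values of named members, 406 kept their call with RLE scaling, 395 with DESeq2, 393 without the filter, 382 with only the 2 groups, 390 with the block and 384 with the Xist term, and of 1624 values without 1 library, 1466 did. The rule at 5 or 20 CPM gave 149 or 87 members, and with TMM scaling 124.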
